A study of Homo sapiens with 10 samples.

Results

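Dense clusters of accessible sites outside promoters were collected from the peak list of an ATAC-seq study of MDA-MB-231 cells, an established human triple-negative breast cancer line. ATAC-seq uses the Tn5 transposase to cut accessible DNA, and a peak is a stretch where cuts pile up. Libraries came from 5 samples with knockout of ARID1A, which encodes a subunit of the SWI/SNF chromatin remodelling complex, and from 5 controls. The labels do not say whether the knockout cells are 1 clone or a pool, or how the replicates were grown. The 1 deposited list names no sample or genotype in its columns and has no value per library. The clusters are therefore described for the series as a whole, and no comparison of knockout with control was made.

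Members were chosen from position alone. Peaks annotated as promoter were set aside, the remaining peaks on chromosomes 1 to 22 and X were joined where the gap to the next peak was 5000 bases or less, and runs of 10 or more peaks were kept. This gave 12 clusters with 136 peaks, out of 112716 non-promoter peaks and 161934 peaks in all. The clusters held 0.121% of non-promoter peaks (95% Wilson interval 0.102 to 0.143). Density is what the rule selects, so the number of peaks, the span and the bases in peaks are descriptions and were not tested. Each cluster is called here by a protein-coding gene that it overlaps or that lies nearest to it, which is a label of place and says nothing of which gene it acts on.

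Accessible sites away from promoters include enhancers, insulator sites and starts of unannotated transcripts. Enhancers bind transcription factors and can raise transcription of genes at a distance. Stretches with many closely spaced enhancers, named super-enhancers or stretch enhancers, are known near genes of cell identity. They are usually defined by histone acetylation or coactivator binding, which were not measured here. The peaks below are therefore called accessible sites, and clusters are stretches of such sites.

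Some member peaks reached into promoter windows of RefSeq (GRCh38.p14; the list uses hg38, the same build), and these stretches are shown because they are the DNA of the members themselves. The first stretch below is 1 whole member peak. All 4 lie at starts of long non-coding RNA genes, in the clusters named TTLL2 and MYO16. Each sequence runs 5′ to 3′ on the strand of the RNA. Capitals mark GGCTCC on either strand, a unit chosen after the sequences had been seen.
LOC105378126, chr6:167423054-167423252, plus strand: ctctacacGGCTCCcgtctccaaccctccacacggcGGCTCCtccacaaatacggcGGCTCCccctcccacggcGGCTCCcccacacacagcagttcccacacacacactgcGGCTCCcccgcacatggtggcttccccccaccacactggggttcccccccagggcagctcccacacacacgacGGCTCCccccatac
LOC105378126, chr6:167424147-167424239, plus strand: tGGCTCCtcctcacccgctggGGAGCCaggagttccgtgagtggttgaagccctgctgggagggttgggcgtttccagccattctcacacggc
LOC124903208, chr13:109140540-109140598, minus strand: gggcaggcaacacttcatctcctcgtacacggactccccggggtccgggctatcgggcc
MYO16-AS1, chr13:109167254-109167488, minus strand: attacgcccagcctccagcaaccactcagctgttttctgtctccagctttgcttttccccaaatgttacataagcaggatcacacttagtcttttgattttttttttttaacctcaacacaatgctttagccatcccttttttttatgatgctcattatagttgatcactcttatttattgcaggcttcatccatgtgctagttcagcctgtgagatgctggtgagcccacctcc

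The whole peak of 199 bases carried 6 copies of the unit and was 68.8% G and C. Among 34961 RefSeq promoter windows of 300 bases, 36.0% held at least 1 copy and 12 windows (0.0343%) held 6 or more. The window around this peak is itself among the 12, and the unit was picked from it, so these shares are no independent measure of rarity. The neighbouring stretch of 93 bases held 2 copies. At LOC124903208 there were 0 copies in 59 bases, of which 67.8% were G and C. The stretch at MYO16-AS1 held 0 copies and was 41.7% G and C, with runs of T. The 4 stretches thus differed among themselves in base makeup, and all 4 lacked the letters TGANTCA, the site of AP-1 factors, on either strand.

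For HIF1A, RBM38 and MNX1 the cluster lay closest to a RefSeq start of the gene it is named for (8335, 14699 and 5971 bases), and a promoter window is shown because a promoter peak covered all 300 bases of each. HIF1A has 2 RefSeq starts, and the window shown belongs to the one farther from the cluster. HIF1A encodes the oxygen-regulated subunit of the hypoxia-inducible factor, RBM38 an RNA-binding protein induced by p53, and MNX1 a homeobox factor of motor neurons and pancreas. Windows run from 250 bases before to 50 bases after the RefSeq start, 5′ to 3′ on the gene's strand. Capitals mark the GC box GGGCGG, the CCAAT box and ACGTG, a form of the core of hypoxia response elements, each searched on both strands. The other form, GCGTG, was not searched, and it stands unmarked in the HIF1A and RBM38 windows. Where GC boxes share bases, both were counted.
HIF1A, chr14:61695263-61695562, plus strand: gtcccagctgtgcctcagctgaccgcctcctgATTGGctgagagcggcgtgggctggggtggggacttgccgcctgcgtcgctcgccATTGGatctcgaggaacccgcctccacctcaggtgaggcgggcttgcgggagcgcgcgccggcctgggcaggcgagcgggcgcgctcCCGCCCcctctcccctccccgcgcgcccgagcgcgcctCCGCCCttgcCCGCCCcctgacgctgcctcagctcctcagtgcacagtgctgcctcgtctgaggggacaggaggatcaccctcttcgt
RBM38, chr20:57391146-57391445, plus strand: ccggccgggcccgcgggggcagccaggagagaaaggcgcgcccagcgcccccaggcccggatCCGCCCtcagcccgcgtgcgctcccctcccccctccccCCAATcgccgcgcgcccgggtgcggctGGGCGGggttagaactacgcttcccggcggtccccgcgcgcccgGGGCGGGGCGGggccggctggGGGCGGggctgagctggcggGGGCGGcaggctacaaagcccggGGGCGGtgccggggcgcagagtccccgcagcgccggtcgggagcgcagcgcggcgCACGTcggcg
MNX1, chr7:157010614-157010913, minus strand: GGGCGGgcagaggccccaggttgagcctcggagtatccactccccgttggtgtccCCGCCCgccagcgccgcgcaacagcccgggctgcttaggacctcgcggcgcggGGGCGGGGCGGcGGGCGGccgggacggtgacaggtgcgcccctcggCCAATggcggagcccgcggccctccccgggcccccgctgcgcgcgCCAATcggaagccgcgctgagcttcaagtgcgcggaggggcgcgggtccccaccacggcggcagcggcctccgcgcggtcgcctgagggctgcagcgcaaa

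The HIF1A window held 3 GC boxes, 2 CCAAT boxes and 0 matches to ACGTG, which does not count the form GCGTG. RBM38 had 7 GC boxes, 1 CCAAT box and 1 match to ACGTG, and MNX1 had 5 GC boxes and 2 CCAAT boxes. Of all windows, 45.0% held a GC box, 34.6% a CCAAT box, 21.4% the letters ACGTG and 7.68% the AP-1 letters. None of the 3 windows held the AP-1 letters. A match describes the letters and does not show that a factor binds.

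Dense clusters were rare. Joining gave 79219 runs, of which 56498 were single peaks and 15694 were pairs. Numbers fell steeply with size, with 498 runs of 5, 73 of 7, 34 of 8 and 16 of 9. Above the threshold there were 7 clusters of 10 peaks, 1 of 11, 2 of 12, 1 of 14 and 1 of 17.

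**Figure D1:**
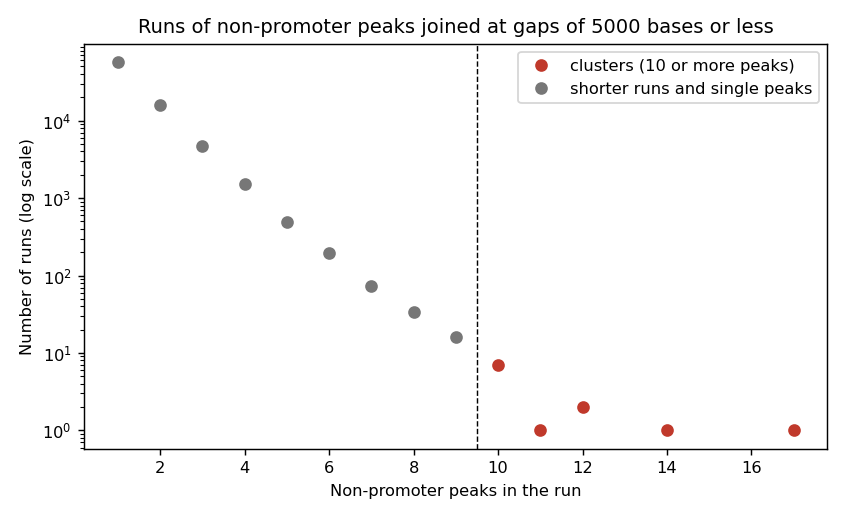
Number of runs (vertical, log scale) against the non-promoter peaks in a run (horizontal), with clusters in red and shorter runs in grey. The count falls to 16 runs of 9 peaks and 7 of 10 at the dashed threshold, and the clusters of 14 and 17 peaks stand furthest right.

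Runs just outside the threshold had spans like those just inside, but a larger share of the span lay in peaks at the median. The 7 clusters of 10 had a median span of 24324 bases, and the 16 runs of 9 spanned 17377 to 35142 bases (median 23518). In bases covered by peaks, the clusters of 10 had a median of 4243 and the runs of 9 a median of 5143.5. The share of the span in peaks was 12.3% to 25.9% in the clusters of 10 (median 16.2%) and 17.8% to 28.3% in the runs of 9. The threshold counts peaks and not covered bases, so some runs just outside held more accessible sequence than some clusters. The runs of 9 lay on 11 chromosomes and 7 of the 16 overlapped a protein-coding gene, namely ATXN7L1, LHX3, FGD5, RASA3, TENM2, CUL1 and RPS6KA2.

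Together the 12 clusters spanned 345993 bases, of which 64281 (18.6%) lay in peaks. Their spans ranged from 16334 to 45724 bases, with a median of 27360. They lay on 7 chromosomes, with 3 on chromosome 13, 2 each on chromosomes 6, 7 and 20, and 1 each on chromosomes 8, 9 and 14. Chromosome 13 held 33 of the 136 cluster peaks (24.3%) but 4.17% of non-promoter peaks, and chromosome 20 held 26 (19.1%) against 3.50%. Chromosomes 1 and 2, with 9.08% and 10.1% of non-promoter peaks, had no cluster, and their largest runs held 9 and 8 peaks. These shares rest on few clusters, each of which adds 10 or more peaks at once. Of runs of 5 or more peaks, chromosome 13 held 5.90%, chromosome 20 5.18%, chromosome 1 7.83% and chromosome 2 11.2%. DNA copy number was not measured here.

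**Figure D2:**
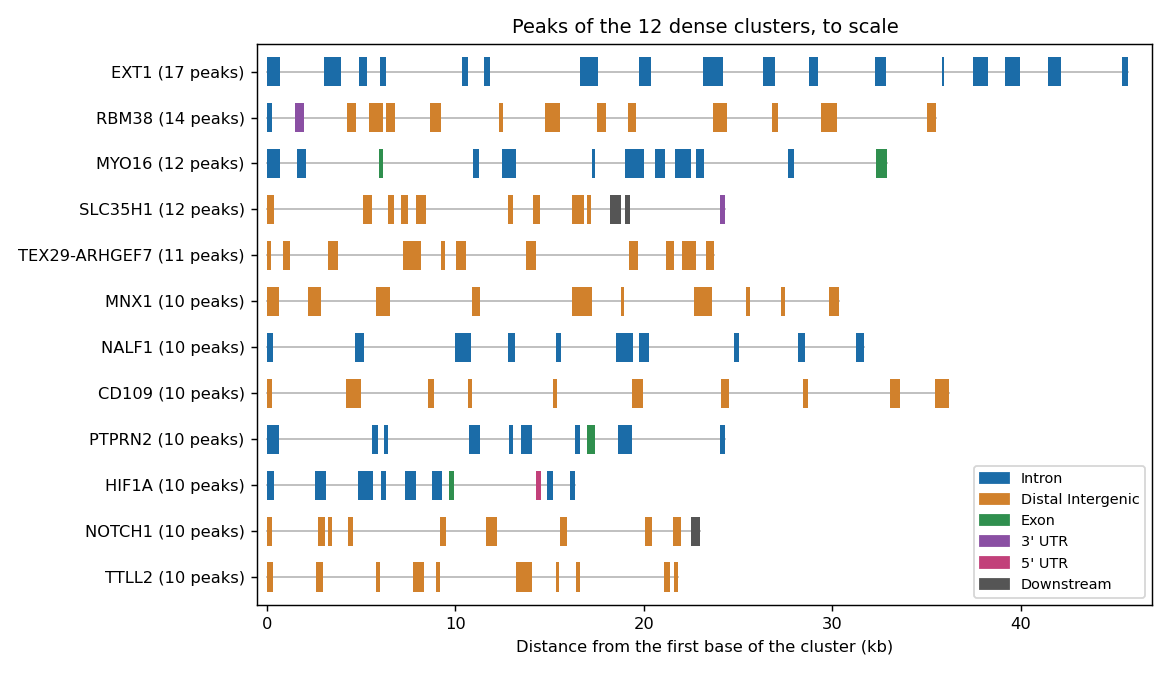
Peaks of each cluster drawn to scale against the distance in kb from the first base of the cluster, coloured by the annotation class in the list, with clusters in order of peak number. Peaks in EXT1, NALF1, MYO16, PTPRN2 and HIF1A are mostly intronic, and those of the other 7 clusters mostly lie between genes.

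The largest cluster lay inside EXT1, which encodes a glycosyltransferase that builds heparan sulfate chains. It held 17 peaks from 117917637 to 117963360 on chromosome 8 (hg38), a span of 45724 bases with 21.9% in peaks. All 17 lay in the first of 10 introns of the listed transcript, 147054 to 192060 bases from the nearest listed start. EXT1 held 65 peaks in its body, so the cluster had 26.2% of the gene's peaks in 14.4% of its length. Peak lengths ran from 140 to 1061 bases with a median of 599, the longest median of the 12. The peak of 926 bases at 117920660 to 117921585 contained SNORD168, a small nucleolar RNA gene. With gaps limited to 4000 bases the cluster still held a run of 11.

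RBM38 had the next largest cluster, with 14 peaks from 57406095 to 57441611 on chromosome 20. It began in the last intron of the gene, 14699 bases past its RefSeq start, took in 1 peak in a 3' UTR and ran on through 12 intergenic peaks. The span of 35517 bases had 20.7% in peaks. The cluster also overlapped LOC124904939, a long non-coding RNA gene, and its last peak lay 1483 bases from the RefSeq start of that gene. The start of RBM38 itself carried a promoter peak of 834 bases, which covers the window printed above. The next protein-coding genes were RAE1, an mRNA export factor, at 26893 bases on one side and CTCFL, a paralog of the insulator protein CTCF, at 54354 bases on the other. With gaps limited to 4000 bases, RBM38 and EXT1 were the clusters that still held a run of 10 or more.

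Chromosome 13 carried 3 clusters, at 6.62, 5.19 and 2.95 Mb from its last peak. The cluster in MYO16, an unconventional myosin, had 12 peaks from 109134585 to 109167488, of which 10 were in introns 31 and 32 of 34 and 2 were exonic. It took 12.2% of the 98 peaks in the gene on 4.62% of its length, near the end of the gene and 504974 bases from its RefSeq start. It overlapped 3 long non-coding RNA genes, LOC124903208, LOC105370356 and MYO16-AS1, and 2 of its peaks reached the RefSeq windows printed above. NALF1, which encodes an auxiliary factor of the sodium leak channel NALCN, had 10 peaks from 107702579 to 107734293, all in the first of 2 introns. These were 9.17% of the gene's 109 peaks on 4.51% of its length. The start of NALF1 carried a promoter peak of 1831 bases.

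The third cluster of chromosome 13 lay between genes, with 11 peaks from 111380464 to 111404211. Its nearest protein-coding genes were TEX29, named for its expression in testis, at 36216 bases, and ARHGEF7, an exchange factor for the small GTPases Rac and Cdc42, at 74730 bases. All 11 peaks were listed as distal intergenic, 59796 to 83106 bases from the nearest listed start. Peaks took up 22.8% of its span of 23748 bases. The region around it was also dense, with 41 peaks in the 100 kb on each side, of which 7 were promoter peaks.

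HIF1A held the most compact cluster, 10 peaks within 16334 bases from 61706047 to 61722380 on chromosome 14. Peaks took up 25.9% of the span, the highest share of the 12, at 6.12 peaks per 10 kb. By the list, 8 lay in introns, 1 in an exon and 1 in a 5' UTR of the listed transcripts. The cluster overlapped HIF1A-AS3, an antisense long non-coding RNA gene. HIF1A had 24 peaks in its body, of which 14 were promoter peaks and the other 10 were exactly the cluster. Promoter peaks stood 3627 bases before and 1885 bases after the cluster, so with promoter peaks included the chain held 14 peaks over 27799 bases. With non-promoter peaks alone it was the cluster least extended by looser joining, still 10 peaks over the same span when gaps of 10000 bases were allowed. This does not make it isolated, because promoter peaks, left out of that joining, made up 22 of the 44 peaks in its flanks.

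Chromosome 20 had a further cluster at SLC35H1, a solute carrier gene formerly named SLC35C2, with 12 peaks from 46325069 to 46349402. Of these, 9 were intergenic, 2 lay just downstream of a gene and 1 was in a 3' UTR. The cluster thus ran across the end of SLC35H1 into the space beyond it. CDH22, a cadherin gene, lay 16571 bases away and ELMO2, a regulator of cell motility, 16648 bases away. The median gap of 1017 bases was shorter than in every other cluster but HIF1A (925 bases). A promoter peak followed 562 bases after its last peak.

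On chromosome 7 a cluster of 10 peaks ran from 157016634 to 157047019, upstream of MNX1. Its first peak lay 5971 bases from the MNX1 start, whose promoter peak of 1558 bases stood 4980 bases before the cluster. All 10 peaks were intergenic, and they included the longest cluster peak, 1066 bases at 157032814 to 157033879. The other cluster of this chromosome lay in PTPRN2, a receptor-type phosphatase family member of secretory vesicles, from 157639313 to 157663636. Its 9 intronic peaks fell in introns 12 and 13 of 21, and its exonic peak lay in exon 13 of 22. The 10 peaks were 7.69% of the 130 peaks in this gene of 1048768 bases, on 2.32% of its length.

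The clusters of chromosome 6 were intergenic throughout. Near CD109, which encodes a surface glycoprotein that binds TGF-beta, 10 peaks ran from 73867477 to 73903661, and the gene ended 39164 bases away. This was the sparsest cluster, with 12.3% of its span in peaks, 2.76 peaks per 10 kb and a median gap of 3925 bases. Its longest run with gaps up to 4000 bases had 4 peaks. The other, 10 peaks from 167407722 to 167429553, lay 65034 bases from TTLL2, a member of the tubulin tyrosine ligase-like family, and 91708 bases from UNC93A. It had the shortest peaks, with a median of 297.5 bases, and overlapped LOC105378126, whose sequence is printed above.

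Beside NOTCH1, the receptor of the Notch signalling pathway, 10 peaks ran from 136586053 to 136609042 on chromosome 9. They lay 40005 bases upstream of the NOTCH1 start and 49814 bases from EGFL7, which encodes a secreted protein of blood vessels. Of the 10, 9 were intergenic and 1 lay just downstream of a gene. The NOTCH1 start carried a promoter peak of 1883 bases. With promoter peaks included, the chain grew to 14 peaks over 45793 bases, 12 of them outside promoters. This cluster, PTPRN2, MNX1 and TEX29-ARHGEF7 lay within 3 Mb of the outermost peak of their chromosome.

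Inside the clusters, peaks were spaced unevenly. Over the 124 gaps the median was 2001.5 bases, with quartiles of 897 and 3895.5 and a range from 131 to 4948. Of these, 35 were under 1000 bases and 28 were over 4000. Every cluster had at least 1 gap over 4000 bases, and the largest gap in each was between 4345 and 4948. The clusters thus consist of shorter runs linked by gaps near the limit.

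**Figure D3:**
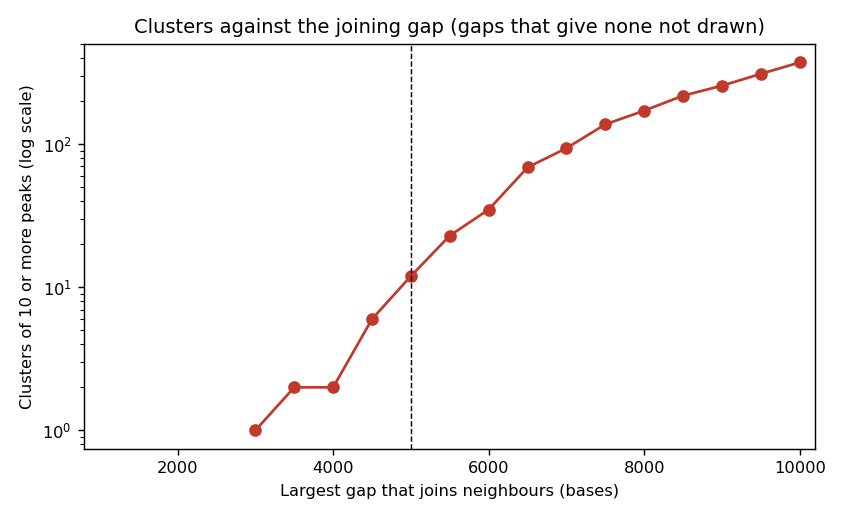
Number of clusters of 10 or more peaks (vertical, log scale) against the largest gap allowed between neighbours (horizontal, bases), with the dashed line at 5000 bases. There are 2 clusters at 4000 bases, 12 at 5000 and 374 at 10000.

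The number of clusters followed the gap closely. At 3000 bases there was 1 cluster, at 4500 there were 6, at 5500 there were 23 and at 7500 there were 138. The order of the clusters also changed with looser joining. At 10000 bases EXT1 reached 47 peaks over 188033 bases, the largest run in the list at that setting, whereas HIF1A stayed at 10. Promoter peaks were left out of this joining, and the nearest peaks on both sides of the HIF1A cluster were promoter peaks. NALF1 reached 25 peaks, TEX29-ARHGEF7 24, and NOTCH1 17.

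The rule picks dense runs that end at a gap over 5000 bases, so lower density beyond the edges follows from it. Averaged over the 12 clusters, the 10 kb after the centre held 3.83 non-promoter peaks, and the bins from 20 kb outward on either side held 0.75 to 1.92 without a steady trend. The median cluster held 4.03 peaks per 10 kb, and the median of its flanks, 100 kb on each side with promoter peaks included, was 1.625 per 10 kb. Flanks held from 24 peaks at MYO16 to 44 at HIF1A. Promoter peaks made up 22 of the 44 around HIF1A and 19 of the 40 around NOTCH1, against 0 of 35 around EXT1 and 0 of 32 around NALF1. The clusters therefore lay in unlike settings, deep inside long genes at EXT1 and NALF1 and among many starts at HIF1A and NOTCH1. The 12 spans contained 0 promoter peaks, which follows from the rule. The list calls a peak within 3000 bases of a listed start a promoter peak. Non-promoter peaks on either side of such a start therefore lie too far apart to be joined at 5000 bases. In 4 clusters, MNX1, HIF1A, SLC35H1 and NOTCH1, a promoter peak lay within 5000 bases of an edge.

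**Figure D4:**
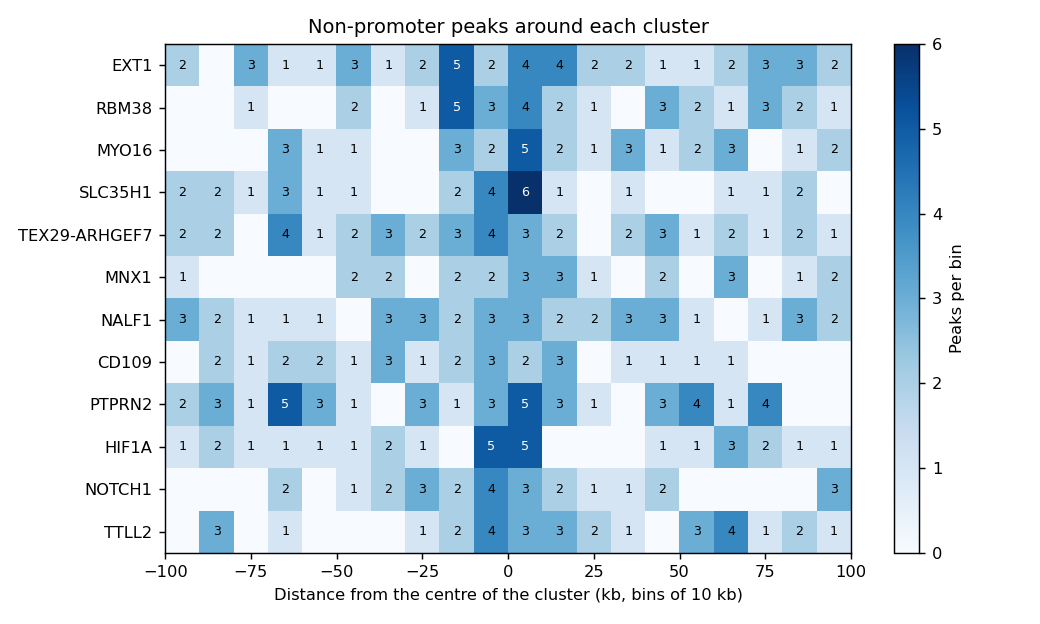
Non-promoter peaks per bin of 10 kb (shade and number, empty where 0) from 100 kb before to 100 kb after the centre of each cluster, one line per cluster. The highest bin of a cluster holds 3 peaks in CD109, MNX1 and NALF1 and 6 in SLC35H1. The mean over clusters is 3.83 in the bin after the centre and between 0.75 and 1.92 in bins lying wholly 20 kb or more from it.

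By annotation class, intergenic peaks were the most frequent in clusters. Of the 136, 71 were distal intergenic (52.2%, 43.9 to 60.4), and of the 112580 other non-promoter peaks 42.4% were (42.1 to 42.7). Introns held 55 cluster peaks (40.4%, 32.6 to 48.8) and 48.9% of the others (48.6 to 49.2). Exons held 4 cluster peaks, the stretch just downstream of genes 3, 3' UTRs 2 and 5' UTRs 1. Intervals cover counting error over peaks, and peaks of 1 cluster share their place and are not replicates, so no test of the difference was made. The class shares rest on few clusters, since 4 clusters were wholly intergenic and EXT1 and NALF1 wholly intronic. With the outer 3 Mb of chromosomes left out the intergenic share was 43.2%, and with 15 or more peaks required, which leaves EXT1 alone, it was 0%. Without EXT1 the intron share was 31.9%, and without the clusters of chromosome 20 it was 49.1%, no longer below that of the others.

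Among intronic peaks, first introns were frequent. They held 34 of 55 intronic cluster peaks (61.8%, 48.6 to 73.5) and 32.3% of other intronic peaks (31.9 to 32.7). All 34 came from 3 clusters, with 17 in EXT1, 10 in NALF1 and 7 in HIF1A. Peaks of a cluster are not replicates, and the difference was not tested. The 7 of HIF1A were first introns of listed transcripts with 2 introns. In the clusters of MYO16, PTPRN2 and RBM38, 0 of the intronic peaks lay in a first intron.

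Cluster peaks were shorter than other non-promoter peaks at the middle and the top of the range. Their median was 438.5 bases (95% interval 374 to 484), with quartiles of 293.75 and 607.5. The other peaks had a median of 500 (498 to 503), with quartiles of 331 and 749. By cluster the median ran from 297.5 bases in TTLL2 to 599 in EXT1, and those of EXT1, MNX1 (591.5) and MYO16 (518) lay above 500. Peaks of a cluster are not replicates, and the difference was not tested. The direction depended on the rule, since the median difference of -61.5 bases turned to 27 bases with gaps of 10000 bases and to 99 bases with 15 or more peaks required. Lengths above 1000 bases were found for 3 of 136 cluster peaks (2.21%, 0.753 to 6.28), in EXT1, MYO16 and MNX1, and for 11.0% of the others (10.8 to 11.1). Peaks in runs of 2 to 9 had a median of 486 bases, and single peaks 517. Length was no simple function of run size, as the median was 372.5 in the clusters of 10, 496.5 in runs of 9 and 599 in EXT1.

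**Figure D5:**
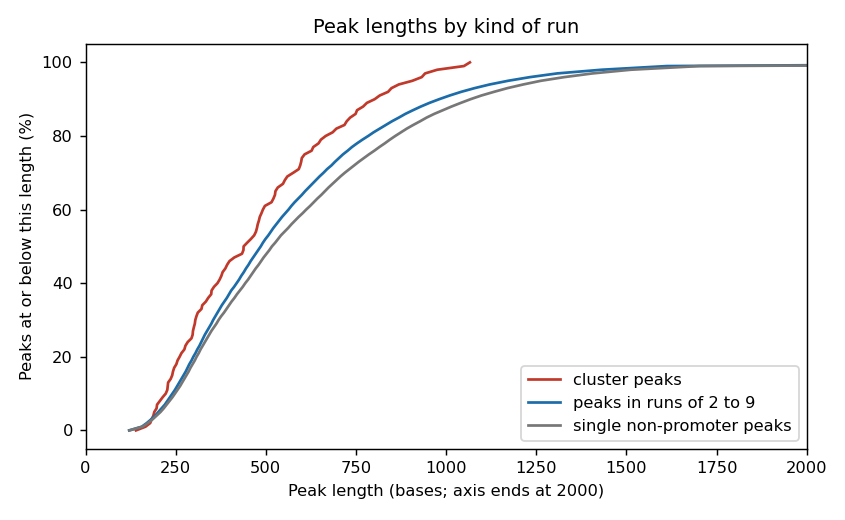
Share of peaks at or below a length (vertical, %) against peak length (horizontal, bases) for cluster peaks in red, peaks in runs of 2 to 9 in blue and single peaks in grey. The cluster curve lies left of the others at the quartiles and ends at 1066 bases, and the medians are 438.5, 486 and 517 bases.

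Distance to listed starts differed widely between clusters. The pooled median distance was 35616 bases for cluster peaks and 15657 bases for other non-promoter peaks. At 10000 bases or more stood 123 of 136 cluster peaks (90.4%, 84.3 to 94.3) and 66.0% of the others (65.7 to 66.2). At 50000 bases or more stood 48 (35.3%, 27.8 to 43.6) and 16.5% (16.3 to 16.7). Promoter peaks were set aside in both groups, which removes the peaks nearest to starts. A joined run also cannot cross a listed start, so long runs hold peaks far from starts at least partly by the rule. The larger distances are therefore a description and were not tested. All 48 came from 4 clusters, with 17 in EXT1, 11 in TEX29-ARHGEF7, 10 in NALF1 and 10 in CD109. EXT1 was the most remote, with a median of 168565 bases. The medians of HIF1A (10080.5), SLC35H1 (14333.5) and MNX1 (15305.5) lay below that of the other non-promoter peaks.

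The annotation of the list and RefSeq did not place starts alike. On chromosomes with RefSeq windows, 7 of 119 cluster peaks (5.88%, 2.88 to 11.6) lay within 3000 bases of a RefSeq start, and 2.50% of 106559 other non-promoter peaks did (2.41 to 2.59). Peaks of a cluster are not replicates, so the intervals cover counting error only and the difference was not tested. Chromosome 8, which holds EXT1, was not among these chromosomes. Some genes on the others, such as SLC35H1 and PTPRN2, also had no window, so starts can be missed. All 7 were at starts of non-coding RNA genes, and that share is not given here for the other peaks. They were 3 peaks in the TTLL2 cluster, all near LOC105378126, 2 in MYO16, 1 in RBM38 and 1 in TEX29-ARHGEF7. A RefSeq start fell inside 3 of them.

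Few protein-coding genes were touched. The 12 clusters overlapped 7 of 19974 (0.0350%), 1 gene in each of 7 clusters, and 5 clusters overlapped none. The overlapped genes had a median length of 317337 bases, against 24170.5 bases for all protein-coding genes. They ranged from RBM38 with 17938 to PTPRN2 with 1048768. Any span meets long genes more often than short ones, and no allowance was made for this. Another 7 overlapped genes were non-coding.

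None of 17 gene lists was represented. Of 353 genes in lists of basal, luminal, epithelial and mesenchymal identity, AP-1, YAP and TEAD, receptor kinase, TGF-beta, NF-kB, integrin, cytoskeletal, SWI/SNF, housekeeping, cell cycle, leukocyte, endothelial and neuronal genes, 0 were overlapped by a cluster and 0 lay within 100 kb of one. The same distance took in 25 of all protein-coding genes (0.125%), so a count of 0 among 353 is near that share. ARID1A had 4 non-promoter peaks in its body, none with a neighbour in reach of joining, and in ARID1B the largest run held 2 peaks.

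Shorter runs, of 5 or more peaks with the clusters included, overlapped 12 of the 353 listed genes (3.40%) and 1.75% of all protein-coding genes. The median gene length was 27824 bases in the lists and 24170.5 bases overall. All 12 genes were longer than the overall median, from GATA3 with 29866 bases to DLC1 with 521260. Long genes meet such runs more often, no allowance was made for this, and the difference was not tested. The listed genes with the longest runs were COL4A1, a basement membrane collagen, and ITGA2, a collagen-binding integrin, each with a run of 7. The estrogen receptor gene ESR1 and GATA3, a factor of luminal breast cells, each held a run of 6. Runs of 5 lay, among others, in EGFR, YAP1, ARHGEF17, DLC1, SMAD6, SMAD7 and PALLD. In the SWI/SNF, epithelial, AP-1, NF-kB, housekeeping, cell cycle, leukocyte, endothelial and neuronal lists, 0 genes were overlapped by such a run. These lists hold from 13 genes (endothelial) to 27 (SWI/SNF). At that size a count of 0 is near the overall share of 1.75% and does not tell them from the other lists.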

How the data were processed

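ATAC-seq was measured in 5 ARID1A knockout and 5 control libraries of MDA-MB-231 cells. Per the submitters' processing notes, Bowtie2 2.3.5.1, MACS2 2.2.6 and build hg38 were used. Peak thresholds, any merging of libraries and the gene annotation used, which set the number, edges and classes of peaks, were not given there. The deposited list has 161934 peaks with position, length, class and distance to a transcript start in bases, and 0 columns with a value per library, so depth is unknown and knockout and control were not compared.

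Non-promoter peaks were joined at gaps (next start minus previous end) up to 5000 bases. The joining returned the planted members in 50 of 50 simulations. Genes and promoter windows came from RefSeq (GRCh38.p14), paired with peaks by position. A start peak lies within 1000 bases of a RefSeq start. Shares carry 95% Wilson intervals and medians binomial ones. Members and lists were chosen with earlier results of these data known. All 12 clusters are named, and in each gene list up to 4 genes with the largest runs. Runs of 5 were added after 0 listed genes met a cluster. Python 3.11.15, numpy 2.4.6, pandas 2.3.3, scipy 1.17.1 and matplotlib 3.10.9 were used.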

Additional observations from a re-analysis of the deposited data

How the results depend on the processing

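No paired analysis was possible because values for separate libraries are not part of the list, and for the same reason no replicate was left out. With gaps of 2500 bases, and with only peaks of the median length or longer (539 bases), there were 0 clusters and 0 cluster peaks. With gaps of 10000 bases there were 374 clusters and 4755 peaks with a median length of 526 bases, and the median length difference to other peaks, -61.5 bases as reported, turned to 27 bases. With 15 or more peaks, 1 cluster of 17 peaks (EXT1) was left, with 100% in introns and a median of 599 bases. The intron difference to other peaks, -8.49 percentage points as reported, then turned to 51.1 points, and the length difference to 99 bases. With 8 or more peaks there were 62 clusters and 552 peaks. Of alternatives chosen after seeing the data, leaving out chromosome 8, whose only cluster is EXT1, gave an intron share of 31.9%, and leaving out chromosome 20 gave 49.1%. Joining through promoter peaks gave 13 clusters and 149 peaks, with all 136 members kept and a cluster at MCF2L on chromosome 13 added. Leaving out the outer 3 Mb of chromosomes gave 8 clusters and 95 peaks, and the intron difference shrank to -0.716 points. With other peaks weighted to the chromosomes of the clusters it was -5.89. The share of genes overlapped was 0.0350% by span and by cluster peaks alike.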

Other observations

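The whole chains at looser joining set the clusters apart in another order. With gaps up to 7500 bases and promoter peaks left out, NALF1 held 24 peaks over 89917 bases and EXT1 20 over 61199. TEX29-ARHGEF7 held 19 over 58012 and NOTCH1 17 over 52090, while MYO16, MNX1, CD109 and HIF1A held no more peaks than at 5000 bases. At MCF2L, an exchange factor gene on chromosome 13, a chain from 112952217 to 113002499 held 11 non-promoter and 8 promoter peaks, and it reached the minimum of 10 non-promoter peaks once promoter peaks took part in the joining.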
